A study of Mus musculus with 6 samples.

Results

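The set described here is the IL-15 and IL-7 branch of common gamma chain cytokine signalling, 8 genes given by symbol: Il15, Il7, Il15ra, Il2rb, Il2rg, Il7r, Jak3 and Stat5a. They were found in the deposited table by matching each gene identifier to its symbol. All 8 were present among its 55487 genes, and all 8 passed the filter on low counts that left 17988 genes to test. The RNA came from whole dorsal skin of mice, taken on day 2, and all of it had been treated with DPCP (diphencyprone), a chemical that sensitizes skin and causes contact allergy. One group of 3 libraries was further given clodrosome, clodronate in liposomes, which is toxic to phagocytes that engulf it (the labels spell this treatment Codrosome). The control group of 3 libraries received encapsome, liposomes of the same kind without the drug. The title of the series asks about macrophages in hair regrowth driven by contact hypersensitivity. The labels give no strain, age, sex, dose or route, and no skin without DPCP is part of the comparison. They do not say that the 3 libraries of a group came from separate mice, so p-values measure the spread between these libraries, which may be technical.

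The common gamma chain, encoded by Il2rg, is the shared signalling subunit of the receptors for IL-2, IL-4, IL-7, IL-9, IL-15 and IL-21. IL-15 is typically held on the surface of one cell by its private receptor Il15ra and presented to a neighbouring lymphocyte that carries Il2rb and the gamma chain. IL-7 binds Il7r with the gamma chain, while Il7r paired with Crlf2 instead forms the receptor for TSLP. The gamma chain carries the kinase JAK3, the partner chains carry JAK1, and both phosphorylate STAT5, which turns on survival and feedback genes. In skin, keratinocytes and other tissue cells make IL-7 and IL-15, and these cytokines sustain resident T cells and innate lymphoid cells and are known for their part in autoimmune hair loss.

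Libraries are named A, B and C within each group. Their totals lay between 26649396 and 35566351 counts, except clodrosome A with 116965654. Levels are given as CPM, counts normalised by library total, and differences as log2 fold changes of clodrosome over encapsome skin with their standard errors from edgeR's quasi-likelihood test. A gene is called where its edgeR adjusted p is under 0.05. The macrophage markers checked the treatment: all 10 of 10 fell, and their summed level was 683 to 1651 CPM with clodrosome against 3785 to 4516 CPM with encapsome. Keratinocyte markers summed to between 18852 and 28809 CPM in the 6 libraries, so the defining markers of skin were abundant. rRNA genes took unequal shares of the counts across both groups, with clodrosome A and C and encapsome A between 0.238% and 0.405% and the other 3 between 0.693% and 0.753%, and the labels name no batch.

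With clodrosome, the IL-7 receptor gene fell by more than any other member, and the receptor chain shared by IL-2 and IL-15 rose. Of the 8 genes, 5 were called, 4 of them lower (Il7r, Il15, Jak3, Stat5a) and 1 higher (Il2rb). Il15ra, Il2rg and Il7 did not pass. Among all genes tested 22.4% were called, 13.0% lower and 9.41% higher. The groups did not overlap for 6 of the 8 genes, against 40.2% of all genes tested. The median log2 fold change of the 8 was -0.29, and that of all genes was 0.01. Apart from Il7r, the changes of the members were small, between 1.02-fold and 1.46-fold. RNA of whole skin cannot tell fewer cells of a type apart from less RNA per cell.

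**Figure D1:**
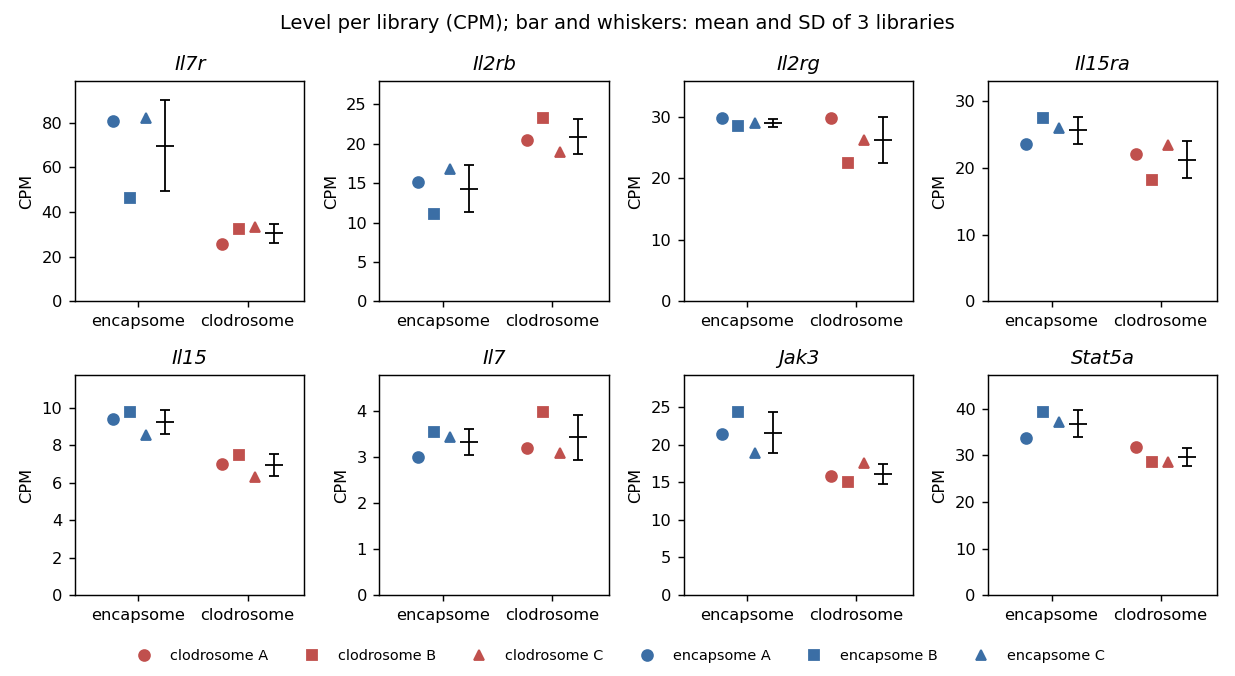
Level of each of the 8 genes in the 6 libraries, in CPM on a linear axis from 0. Points are libraries, the bar and whiskers are the mean and SD of 3 libraries, and blue is encapsome and red clodrosome. Il7r lies between 46.2 and 82.2 CPM with encapsome and between 25.6 and 33.4 CPM with clodrosome, Il2rb is higher in all 3 clodrosome libraries, and the groups overlap for Il2rg and Il7.

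Of the ligands, Il15 fell and Il7 did not pass the test. Il15 encodes the cytokine that sustains natural killer cells and memory T cells (chromosome 8, 82331632 to 82403222, minus strand, GRCm38, as are all positions here). Its level was 6.98, 7.49 and 6.32 CPM in clodrosome libraries A, B and C, and 9.39, 9.79 and 8.56 CPM in encapsome libraries A, B and C. The groups did not overlap, and the highest clodrosome value was 7.49 CPM. The means were 6.93 ± 0.585 and 9.24 ± 0.628 CPM (SD, n = 3 each), and the log2 fold change was -0.42 ± 0.124 (SE; edgeR adjusted p = 0.0400). That call was close to the threshold and was lost without any 1 library except clodrosome B (edgeR adjusted p = 0.0902 and 0.127 without clodrosome A and C, and 0.0979, 0.129 and 0.0653 without encapsome A, B and C). It was also lost with upper-quartile factors and with no filter on low counts (edgeR adjusted p = 0.0505 and 0.0773).

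Il7, the growth factor of lymphocyte precursors and resting T cells (chromosome 3, 7569994 to 7613760, minus strand), was the least abundant member. It stood at 3.18, 3.98 and 3.09 CPM with clodrosome and at 3.0, 3.53 and 3.42 CPM with encapsome. The groups overlapped, with means of 3.42 ± 0.487 and 3.32 ± 0.282 CPM (SD, n = 3 each). The log2 fold change was 0.03 ± 0.177 (SE; edgeR adjusted p = 0.917), and its sign depended on the tool and on single libraries. Total counts of Il7 over all 6 libraries were 909, the fewest of the 8 genes, and its standard error is the second largest after that of Il7r.

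Among the receptor chains, Il7r fell, Il2rb rose, and neither Il15ra nor Il2rg passed. Il7r, the IL-7 receptor alpha chain found on T cells and innate lymphoid cells (chromosome 15, 9505788 to 9530176, minus strand), had 25.6, 32.2 and 33.4 CPM with clodrosome. With encapsome it had 80.8, 46.2 and 82.2 CPM. Encapsome B lay well below the other 2 controls and still above every clodrosome library. Means were 30.4 ± 4.17 and 69.7 ± 20.4 CPM (SD, n = 3 each), a 2.30-fold difference, and the log2 fold change was -1.20 ± 0.203 (SE; edgeR adjusted p = 0.00316). The call was kept in all 13 alternative analyses, with log2 fold changes between -1.43 and -1.07, and with any single library left out its edgeR adjusted p stayed between 5.09e-04 and 0.0145.

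The window around the start of Il7r is shown because this gene changed most and because its letters can be set beside those of the other called members. It runs from 250 bases before to 50 bases after the RefSeq start (GRCm38.p6, chr15:9529827-9530126, minus strand, 5′ to 3′), and capitals mark matches to the motifs searched.
Il7r: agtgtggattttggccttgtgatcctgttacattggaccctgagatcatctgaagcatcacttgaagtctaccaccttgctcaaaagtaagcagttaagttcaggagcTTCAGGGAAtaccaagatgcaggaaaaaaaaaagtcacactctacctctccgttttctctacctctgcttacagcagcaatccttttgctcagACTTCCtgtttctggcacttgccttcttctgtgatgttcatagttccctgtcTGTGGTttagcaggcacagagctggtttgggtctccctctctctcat
Searches covered both strands for 4 short motifs, GGAAGT (the ETS family), TGTGGT (RUNX), GAAANNGAA (IRF) and TTCNNNGAA (STAT). None of the marked matches overlap. The Il7r window held TTCAGGGAA, a STAT match, at -142 to -134, an ETS match on the opposite strand at -49 to -44 and a RUNX match at 4 to 9, counting 1 as the first base of the transcript. Over the 32851 RefSeq windows of the same 300 bases, 23.8% held the ETS letters, 16.8% the RUNX letters, 8.56% the IRF letters and 8.3% the STAT letters. Such matches describe the sequence, and binding was not measured.

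Il2rb, the beta chain through which IL-2 and IL-15 signal in natural killer and T cells (chromosome 15, 78479256 to 78495271, minus strand), was the 1 member that rose. Its level was 20.5, 23.3 and 19.0 CPM with clodrosome and 15.1, 11.1 and 16.8 CPM with encapsome. All 3 clodrosome libraries lay above all 3 controls, and encapsome B was again the lowest control. Means were 20.9 ± 2.18 and 14.3 ± 2.94 CPM (SD, n = 3 each), a 1.46-fold difference, and the log2 fold change was 0.55 ± 0.152 (SE; edgeR adjusted p = 0.0309). The call was lost without clodrosome A or B (edgeR adjusted p = 0.0591 and 0.0653) and without encapsome A or B (edgeR adjusted p = 0.0627 and 0.0872).

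Il15ra, the high-affinity chain that presents IL-15 (chromosome 2, 11705290 to 11734317, plus strand), had 22.1, 18.1 and 23.4 CPM with clodrosome and 23.6, 27.5 and 25.9 CPM with encapsome. The groups just failed to overlap, with clodrosome C and encapsome A almost level. The log2 fold change was -0.27 ± 0.113 (SE; edgeR adjusted p = 0.118), and no alternative called it. Il2rg, the common gamma chain itself (chromosome X, 101264378 to 101268255, minus strand), had 29.8, 22.4 and 26.2 CPM with clodrosome and 29.7, 28.4 and 28.9 CPM with encapsome. Clodrosome A was level with the controls and clodrosome B was the lowest library. The log2 fold change was -0.14 ± 0.106 (SE; edgeR adjusted p = 0.381). Another annotated gene on the same strand, Gm20489, shares 30.5% of the exonic bases of Il2rg, and reads there were left out by the counting, so its level over the full length is understated in all libraries.

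Both signalling genes fell, by less than Il7r did. Jak3, the kinase bound to the gamma chain (chromosome 8, 71676296 to 71690575, plus strand), had 15.8, 15 and 17.5 CPM with clodrosome and 21.4, 24.4 and 18.9 CPM with encapsome. The groups did not overlap, and encapsome C came close to clodrosome C. The log2 fold change was -0.42 ± 0.116 (SE; edgeR adjusted p = 0.0287), and the means were 16.1 ± 1.27 with clodrosome and 21.6 ± 2.77 CPM with encapsome (SD, n = 3 each). It was no longer called without clodrosome A or B (edgeR adjusted p = 0.0712 and 0.0582) or without encapsome A or B (edgeR adjusted p = 0.0696 and 0.124). Insl3, a gene on the same strand, shares 7.55% of its exonic bases.

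Stat5a, a transcription factor that carries the signal to the nucleus (chromosome 11, 100859351 to 100885169, plus strand), had 31.8, 28.6 and 28.5 CPM with clodrosome and 33.8, 39.4 and 37.1 CPM with encapsome. Clodrosome A and encapsome A were the nearest to each other, and the groups did not overlap. The log2 fold change was -0.31 ± 0.0875 (SE; edgeR adjusted p = 0.0331), and the means were 29.6 ± 1.90 with clodrosome and 36.8 ± 2.83 CPM with encapsome (SD, n = 3 each). Its call was lost without clodrosome B or C (edgeR adjusted p = 0.0651 and 0.125) and without encapsome B or C (edgeR adjusted p = 0.131 and 0.0977). Over all 13 alternatives every called member kept its direction.

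The start windows of Jak3 and of the first listed start of Stat5a are shown as those of the other called members that fell and have an entry. They come from RefSeq GRCm38.p6, chr8:71676133-71676432 and chr11:100859406-100859705, both on the plus strand, with motif matches in capitals.
Jak3: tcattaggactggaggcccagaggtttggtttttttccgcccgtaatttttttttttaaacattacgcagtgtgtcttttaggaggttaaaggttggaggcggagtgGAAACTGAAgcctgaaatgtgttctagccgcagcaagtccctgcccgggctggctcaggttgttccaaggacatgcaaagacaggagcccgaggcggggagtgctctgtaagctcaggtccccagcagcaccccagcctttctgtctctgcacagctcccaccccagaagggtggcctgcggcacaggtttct
Stat5a: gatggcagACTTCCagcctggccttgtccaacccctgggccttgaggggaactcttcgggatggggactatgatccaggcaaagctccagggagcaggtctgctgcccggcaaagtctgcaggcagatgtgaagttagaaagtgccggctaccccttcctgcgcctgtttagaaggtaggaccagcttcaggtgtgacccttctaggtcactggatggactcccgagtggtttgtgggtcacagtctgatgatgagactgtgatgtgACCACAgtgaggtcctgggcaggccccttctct
The Jak3 window held an IRF match, GAAACTGAA, at -143 to -135 and none of the other 3 motifs. The Stat5a window held ETS letters at -242 to -237 and RUNX letters at 18 to 23, both on the opposite strand. Il7r and Stat5a thus had ETS and RUNX letters in common, each of which is frequent in the windows of all genes, and no motif was found in all 3. Of the 8 members 5 had an entry, with 7 windows in all. Il15ra, which did not pass, had IRF letters in both of its windows and ETS letters in the first, Il2rg had RUNX letters at -227 to -222, and the other window of Stat5a held none of the 4. Il15, Il2rb and Il7 were not listed.

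The division by rRNA share was examined within each side, with 2 clodrosome against 1 encapsome library on the low side and 1 against 2 on the high side. Il7r had log2 ratios of -1.45 and -1.0 on the low and high sides. Il2rb had 0.39 and 0.74, and Il15 had -0.50 and -0.29. Jak3 had -0.36 and -0.53, and Stat5a had -0.16 and -0.42. Each called member thus kept its direction on both sides. With the division as a term in the edgeR fit, Il15 and Stat5a were no longer called (edgeR adjusted p = 0.0560 and 0.0518, over ranges of 0.0321 to 0.129 and 0.0307 to 0.131 in all alternatives).

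Levels of different genes were compared as TPM, counts per exonic base scaled to the same total in each library. With encapsome the order was Il7r at 39.1 ± 11.5, Il2rg at 31.7 ± 1.17, Il15ra at 15 ± 0.985, Stat5a at 13.5 ± 0.884, Il15 at 10.7 ± 0.819, Jak3 at 10.5 ± 1.39, Il2rb at 8.73 ± 1.77 and Il7 at 1.53 ± 0.109 TPM (SD, n = 3). Neighbours whose libraries overlapped were Il7r with Il2rg, Il15ra with Stat5a, Il15 with Jak3, and Jak3 with Il2rb. With clodrosome Il2rg led at 29.7 ± 5.88 TPM and Il7r followed at 17.5 ± 2.08 TPM. Il2rb had moved from the seventh place to the third, at 13.1 ± 0.807 TPM, overlapping Il15ra at 12.9 ± 2.36 TPM (SD, n = 3). Stat5a at 11.2 ± 1.30, Il15 at 8.24 ± 0.521, Jak3 at 8.11 ± 1.0 and Il7 at 1.62 ± 0.132 TPM (SD, n = 3) kept their order. Il15ra with Stat5a and Il15 with Jak3 overlapped here too. Counted only over exonic bases that no other gene shares, Il2rg averaged 45.6 TPM with encapsome and 42.7 TPM with clodrosome. That placed its mean above that of Il7r in both groups, although with encapsome the libraries of the pair still overlapped. On the same basis the mean of Jak3, at 11.4 TPM with encapsome and 8.77 TPM with clodrosome, lay above that of Il15 in both groups. The libraries of Jak3 and Il15 overlapped in both, so their order is not settled.

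**Figure D2:**
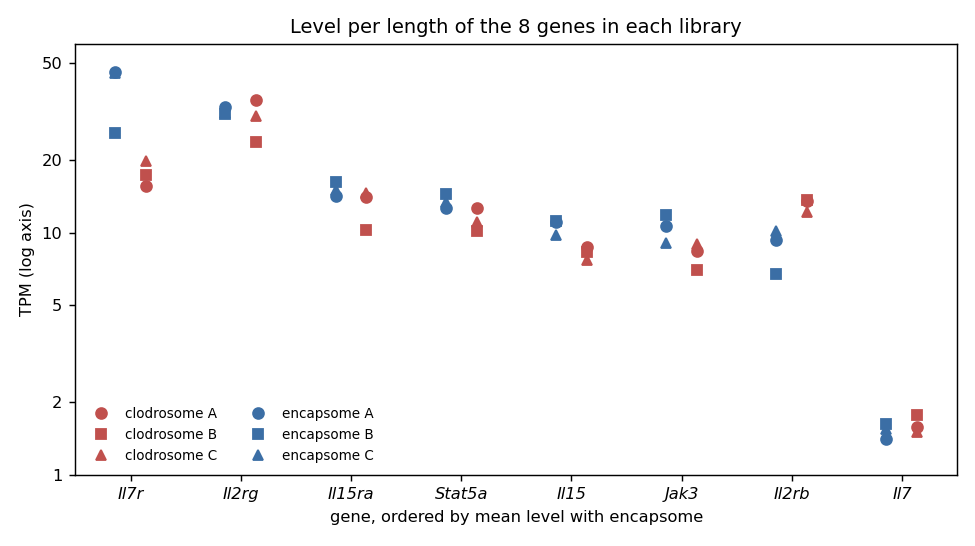
Level per length of the 8 genes in each library, in TPM on a log axis, with genes in order of their mean level with encapsome (blue) and clodrosome in red. Il7r heads the control order at a mean of 39.1 TPM and falls to 17.5 TPM with clodrosome, Il2rb rises from 8.73 to 13.1 TPM, and Il7 lies lowest in both groups.

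The balance of receptor chains shifted. Per transcript of Il2rb there were 4.93, 3.83 and 4.49 of Il7r in encapsome libraries A, B and C by TPM, and 1.15, 1.27 and 1.61 in clodrosome libraries A, B and C. This ratio separated the groups more widely than either chain set against the gamma chain. Il7r per Il2rg was 1.39, 0.832 and 1.46 with encapsome and 0.440, 0.734 and 0.651 with clodrosome. Il2rb per Il2rg was 0.283, 0.217 and 0.325 with encapsome and 0.383, 0.578 and 0.403 with clodrosome. The IL-15 pair showed no such separation, since Il15 per Il15ra was 0.783, 0.700 and 0.651 with encapsome and 0.621, 0.815 and 0.530 with clodrosome. Ratios to Il2rg use its level over the full length, which is understated, so they read too high in all libraries. They do not show whether Il7r exceeded the gamma chain. The ratios are descriptions of levels tested above, and no test was run on them.

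The other cytokine and receptor genes of the gamma chain family, with TSLP and its receptor, made a list of 10, of which 6 passed the filter. Of those 6, 4 fell and 1 rose, with a median log2 fold change of -0.74. Of all genes tested 13.0% were called lower and 9.41% higher. Both partners of Il7r in TSLP signalling fell. Crlf2, the TSLP receptor chain, had 17.3, 18.1 and 16.6 CPM with clodrosome and 30.7, 29.8 and 29.7 CPM with encapsome, a tight separation (log2 fold change -0.79 ± 0.0797 SE; edgeR adjusted p = 2.39e-04). Tslp, an epithelial cytokine of allergic skin, had 5.15, 9.07 and 6.79 CPM with clodrosome and 26.6, 12.2 and 12.1 CPM with encapsome. Encapsome A was far above the other controls, and the log2 fold change was -1.30 ± 0.321 (SE; edgeR adjusted p = 0.0188), or -0.81 without that library. The call of Tslp was lost without clodrosome A or C (edgeR adjusted p = 0.0595 and 0.0515).

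The receptors for IL-4 and IL-21 were lower too. Il4ra, the IL-4 receptor alpha chain, had 276, 237 and 239 CPM with clodrosome and 345, 485 and 390 CPM with encapsome (log2 fold change -0.70 ± 0.126 SE; edgeR adjusted p = 0.00449). Il21r, the IL-21 receptor, had 5.83, 5.19 and 4.14 CPM with clodrosome and between 7.58 and 10.4 CPM with encapsome (log2 fold change -0.88 ± 0.176 SE; edgeR adjusted p = 0.00725). The groups were apart for both genes, and both calls were kept in all 13 alternatives. Il2ra, the high-affinity IL-2 receptor chain of activated and regulatory T cells, was the gene that rose, with 6.96, 7.20 and 8.76 CPM against 4.19, 5.85 and 5.67 CPM. Its log2 fold change was 0.54 ± 0.168 (SE; edgeR adjusted p = 0.0461), the least secure of the 5, since the call was lost without each of the 6 libraries in turn (edgeR adjusted p from 0.0525 to 0.164). Il4 did not pass (log2 fold change -0.31; edgeR adjusted p = 0.476). Il2, Il9 and Il21 had between 0 and 6 counts in each library and Il9r between 4 and 34, too few to test.

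Of 11 JAK-STAT partners tested, 6 fell and none rose, with a median of -0.27, where 13.0% of all genes tested were called lower. Grb2, an adaptor that links receptors to the RAS pathway, had a log2 fold change of -0.97 (edgeR adjusted p = 1.06e-04). Ptpn6, the phosphatase SHP-1 of blood cells that dampens JAK signalling, fell by 0.74 (edgeR adjusted p = 9.82e-04), and Sh2b3, the inhibitory adaptor LNK, fell by 0.43 (edgeR adjusted p = 0.00475). Those 3 calls were kept in all 13 alternatives. Smaller falls included those of Stat5b, the close relative of Stat5a, at -0.29 and the adaptor gene Shc1 at -0.27 (edgeR adjusted p = 0.0212 and 0.0221). Both were lost without clodrosome C, encapsome B or encapsome C, and Shc1 also without clodrosome A, with edgeR adjusted p-values up to 0.0990 and 0.0943. Jak1, the kinase of the partner chains, missed the threshold at -0.22 (edgeR adjusted p = 0.0620), and Stat3 stood at -0.03 (edgeR adjusted p = 0.854).

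None of 11 STAT5 target and feedback genes was called, that is 0 by edgeR. An unadjusted edgeR p under 0.05 was found for 4 of the 11, against 6433 of all 17988 genes tested. The median log2 fold change of the 11 was 0.05. The 3 with the smallest p were the survival gene Mcl1 at -0.22 (edgeR adjusted p = 0.0534), the cyclin gene Ccnd2 at 0.18 (edgeR adjusted p = 0.0919) and the feedback inhibitor gene Socs2 at 0.43 (edgeR adjusted p = 0.127). DESeq2 and limma-voom each called 1 gene, Mcl1 (adjusted p = 0.0323 and 0.0396). Cish, a feedback inhibitor induced by STAT5, had 10.3, 9.10 and 16.7 CPM with clodrosome and 9.77, 11.2 and 9.36 CPM with encapsome, and the groups overlapped (log2 fold change 0.24 ± 0.211 SE; edgeR adjusted p = 0.454).

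**Figure D3:**
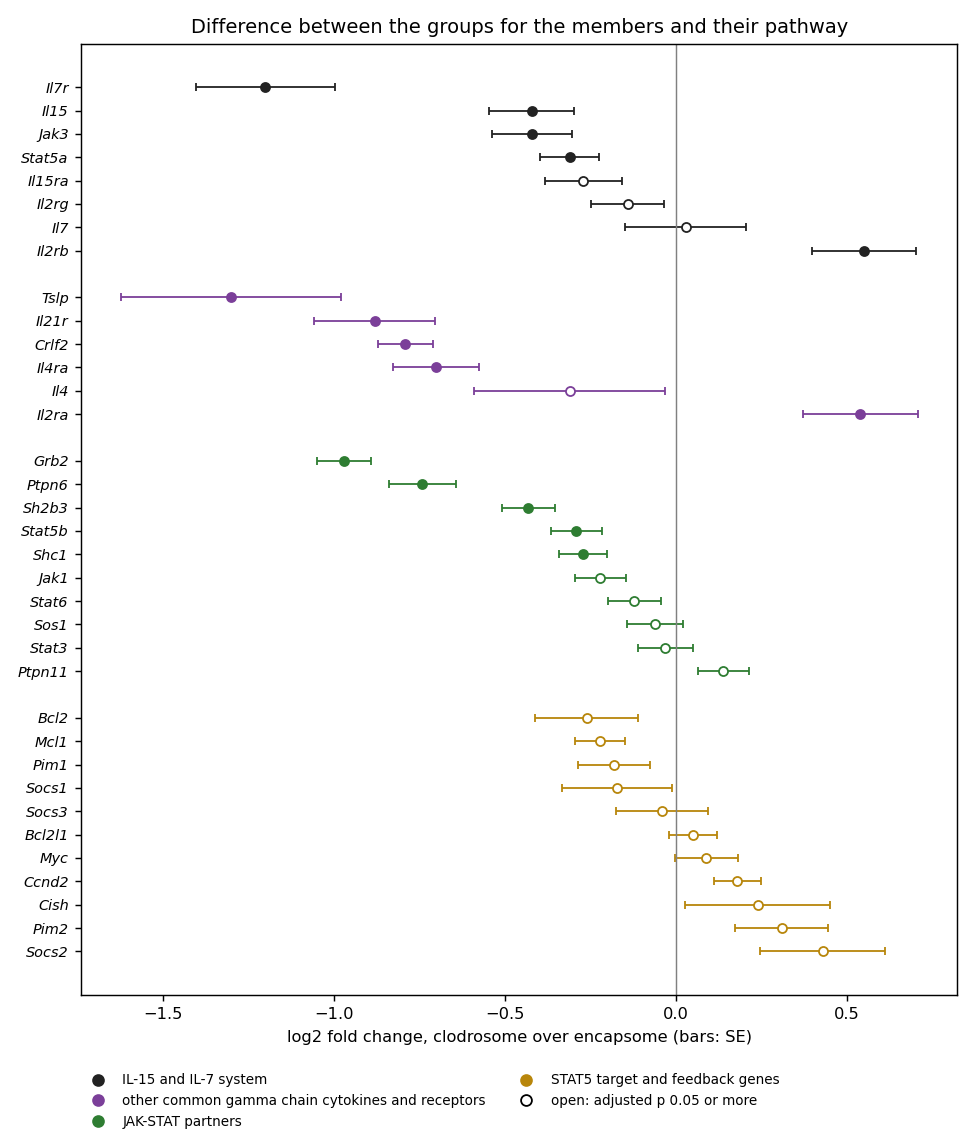
Log2 fold change of clodrosome over encapsome for the 8 genes and for genes of the 3 pathway lists reported here, with SE as bars. Filled points have an edgeR adjusted p under 0.05 and open points do not. Il7r at -1.20, Tslp at -1.30 and Grb2 at -0.97 lie farthest to the left, Il2rb at 0.55 and Il2ra at 0.54 are the filled points to the right of 0, and all STAT5 target genes are open.

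Markers of cell types that could carry these receptors were read beside the members. The 10 natural killer and cytotoxic lymphocyte genes, whose cells carry Il2rb, had 0 calls by edgeR and 0 with an unadjusted p under 0.05. Their summed level was 40.5 to 67.8 CPM with clodrosome and 41.8 to 54.2 CPM with encapsome, so the groups overlapped. Klrd1, a receptor of these cells, had the smallest p of the list (log2 fold change 0.35; edgeR adjusted p = 0.144). Of 14 T cell genes 2 rose and 1 fell, a share near the 22.4% called among all genes tested. The log2 fold changes were 0.55 for the kinase gene Lck, 0.44 for the receptor constant region gene Trbc2 and -1.02 for the co-stimulatory receptor gene Cd28 (edgeR adjusted p = 0.0362, 0.0345 and 0.0237). The call of Lck was lost without clodrosome A or B or encapsome B or C, that of Trbc2 without clodrosome B or any encapsome library, and that of Cd28 without clodrosome A or C or encapsome A or C (edgeR adjusted p up to 0.123, 0.135 and 0.0783). The summed T cell level overlapped between the groups, at 70.8 to 88.5 CPM with clodrosome and 65.6 to 74.9 CPM with encapsome. None of 6 gamma-delta T cell genes was called by edgeR and 2 had an unadjusted p under 0.05, against 6433 of all 17988 genes tested. The sums of the 6 genes were 16.3 to 19.7 CPM with clodrosome and 15.4 to 16.5 CPM with encapsome. The part of these cells in the rise of Il2rb was not tested.

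Lists whose summed level fell along with Il7r were those of innate lymphoid cells, macrophages, dendritic cells and fibroblasts. The 6 innate lymphoid genes summed to 199 to 202 CPM with clodrosome and 268 to 280 CPM with encapsome. Il1rl1, the IL-33 receptor, also found on mast cells and regulatory T cells, fell by 2.05 (edgeR adjusted p = 9.85e-05), and Id2, a transcriptional regulator of these cells, fell by 0.45 (edgeR adjusted p = 0.0182). The call of Id2 was lost without clodrosome A or C or encapsome B or C (edgeR adjusted p up to 0.0731). Of 10 macrophage genes the 3 with the smallest p were Fcgr1, Mertk and Cd68, at -1.35, -1.88 and -2.01 (edgeR adjusted p = 1.45e-04, 4.89e-04 and 3.40e-04). Dendritic and Langerhans cell genes summed to 97.3 to 107 CPM against 132 to 156 CPM. Of the 9 genes 2 were lower, Cd209a at -1.63 and Itgax at -0.95, and Ccr7 was higher at 1.07. Of all genes tested 13.0% were called lower and 9.41% higher. The median log2 fold change of the 9 dendritic and Langerhans cell genes was only -0.09, so the lower sum does not describe the list as a whole. All 6 fibroblast genes fell, with sums of 1514 to 2629 CPM against 5052 to 5812 CPM. Of 5 B cell genes only Cd79b had enough counts to test, and its log2 fold change was -1.43 (edgeR adjusted p = 0.0144), a call lost without encapsome A or B (edgeR adjusted p = 0.0551 and 0.0516). No marker named in the lists was at 0 in all 6 libraries, and the part of these cells in the falls of Il7r, Il15, Jak3 and Stat5a was not tested.

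Other lists rose, moved both ways or moved little, where 22.4% of all genes tested were called. Keratinocyte genes had 6 higher and 3 lower of 10, with sums of 28095 to 28809 CPM against 18852 to 23144 CPM. The 3 lower were Krt1 at -1.10, Krt10 at -1.36 and Lor at -2.18, so the list did not rise as a whole. Krt14, which was not called, made the largest part of the sums, with means of 15667 CPM with clodrosome and 12430 CPM with encapsome. Endothelial genes had 5 higher of 7 (480 to 551 CPM against 331 to 417 CPM over the list), and skeletal muscle genes 5 higher of 8 (4024 to 5525 CPM against 2837 to 3391 CPM). Neutrophil genes had 2 higher of 8, and their sums of 1468 to 2069 CPM and 1069 to 1721 CPM overlapped. Of 16 interferon response genes 4 fell, among them Oas1a by 0.69, Irf7 by 0.49 and Cxcl10 by 0.40, and none rose. For the neutrophil and interferon lists the share called in either direction was near that of all genes tested. The call of Irf7 was lost without encapsome C and that of Cxcl10 without encapsome B or C (edgeR adjusted p up to 0.0547 and 0.0714). The summed level of the 16 genes overlapped between the groups, at 665 to 859 CPM with clodrosome and 730 to 881 CPM with encapsome. Their median log2 fold change was -0.11. Il15 and Il15ra are known to be induced by interferons, and the part of interferon in the fall of Il15 was not tested.

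**Figure D4:**
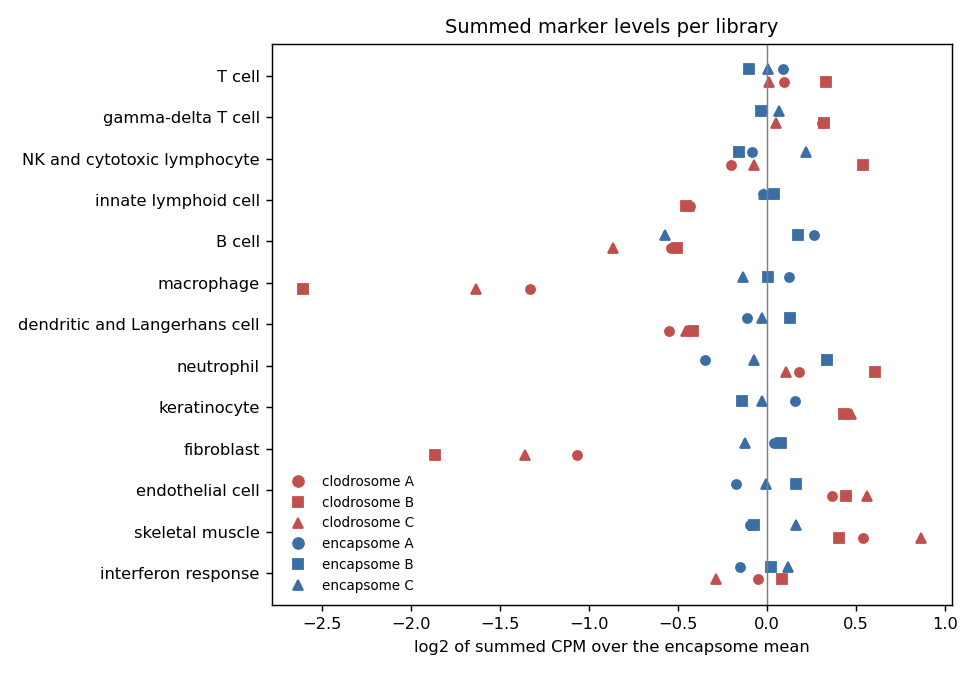
Summed level of each list of marker genes in each library, as log2 of the summed CPM over the mean of the encapsome libraries. Blue points are encapsome and red points clodrosome libraries. Macrophage and fibroblast sums lie far to the left in all 3 clodrosome libraries, innate lymphoid and dendritic sums lie to the left by less, and the sums of natural killer cells and of the interferon response overlap between the groups.

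For each called member the genes with the most similar profile were sought among 13721 genes, by the root mean square difference of mean-centred log2 CPM over the 6 libraries. The search measures likeness in these 6 libraries only. Amz1 and Fam20c were nearest to Il7r, with differences of 0.11 and 0.13. Both were low in encapsome B, which the search itself favours because Il7r is low there. Amz1 had 6.38 CPM in that library against 9.97 and 11.8 CPM in encapsome A and C. Fam20c had 17.6 CPM against 30.9 and 25.4 CPM. Ccrl2 and Ctf1 were nearest to Il2rb (0.06 and 0.08). Dbnl and Slc35a5 were nearest to Il15 (0.02 and 0.04), Dennd5a and Enpp2 to Jak3 (0.05 each), and Pxn and Spry1 to Stat5a (0.02 each). Members with small changes thus had closer neighbours than Il7r, whose profile spans a wider range.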

How the data were processed

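Polyadenylated RNA was measured in 6 whole-skin libraries, 3 per group. The authors deposited unnormalised counts for each gene and its exonic length, from featureCounts 1.6.2 and Ensembl annotation 102, per the file headers. Per the submitters' processing notes, reads were handled with Trimmomatic 0.36 and HISAT2 2.2.1 on mm10, and StringTie 2.2.1 and DESeq2 1.34.0 are also named. The recorded command sets no paired-end, strand or multi-mapping option, so read ends are counted singly, strand is ignored, and reads hitting several places or genes are dropped. Antisense overlaps therefore cannot be told apart.

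Columns were matched to groups by name, with 0 columns left over. Symbols were found for 99.4% of genes. CPM used TMM factors from edgeR 4.0.16 (R 4.3.3), with filterByExpr (minimum count 10, minimum total 15), glmQLFit and glmQLFTest on group alone, and Benjamini-Hochberg adjustment over 17988 genes. Precision follows depth: a count of 0 allows up to 0.0513 CPM in clodrosome A and 0.169 to 0.225 CPM elsewhere (3 fragments, taken as 6 counts; counting error only). The fit was tested on simulated data. Replicate libraries differed by far more than counting noise (chi-square 9.93 to 53.0 per gene), so no 2 were taken for 1 library deposited again; this does not show that they came from separate mice. Alternatives were RLE and upper-quartile factors, no filter, thinning, the rRNA division as a term, DESeq2 1.42.0, limma-voom (limma 3.58.1) and leaving out each library. Named were all members, every called gene of a pathway list (otherwise the 3 smallest p), up to 3 genes of smallest p per marker list, and the 2 most similar genes per called member. Jak1, Stat3, Il4, Cish, Krt1, Krt10, Krt14, Lor and the genes too low to test were named after their values were seen. Members and lists were chosen with earlier results of these data known. Promoter windows are RefSeq's. Within-group library letters follow column order. Some list genes that the naming rule selects are not reported here.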

Additional observations from a re-analysis of the deposited data

How the results depend on the processing

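Of 104 pairs of a member with an alternative (13 each), 79 kept direction and side of the threshold, 21 kept direction but lost the call, and 4 changed sign, all for Il7. Il7 went from 0.03 to -0.04 with thinned counts and -0.01 with limma-voom, and from -0.08 (without clodrosome B) to 0.09 over the libraries left out in turn, with -0.04 without encapsome A. Of the 793 pairs for the other 61 named genes 715 stayed, 66 lost and 12 gained a call, and 0 changed sign. The 5 called members became 4 with upper-quartile factors and 4 with no filter on low counts (Il15 lost in both), 3 with the rRNA division as a term, and between 1 and 3 when single libraries were left out: 2 without clodrosome A, clodrosome B or encapsome A, 3 without clodrosome C or encapsome C and 1 without encapsome B. Fewer libraries enter those fits. For the other gamma chain genes, 5 called became 3 to 4, with 3 without clodrosome A or C. For JAK-STAT partners, 6 became 3 to 7, with 3 without clodrosome C, encapsome B or encapsome C. For STAT5 targets, 0 became 1 with no filter on low counts (Socs2), 1 with DESeq2 and 1 with limma-voom (Mcl1), and 0 to 2 over the libraries left out (1 without clodrosome A, 2 without clodrosome B), the cause of which was not tested. The number of all genes called, 4035, lay between 2477 (without encapsome B) and 4396 (without clodrosome B) over the libraries left out, with 2642 without clodrosome C, and was 4729 with no filter on low counts. With upper-quartile factors 2091 of all genes called were higher and 2132 lower, against 1692 and 2343. No paired analysis was possible because column numbers and the replicate numbers in the titles do not correspond. Depth limits Il2, Il9, Il21 and Il9r, which could not be tested.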

Other observations

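Ccl21a, a chemokine gene of lymphatic vessels picked out after its values were seen, had 596 counts in clodrosome C and 578 in encapsome B, but between 0 and 2 counts in each of the other 4 libraries, a division that follows neither the treatment nor the rRNA share. Near-identical copies of this gene exist and reads that map to several places were left out, so its count is uncertain.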
